A study of Mus musculus with 24 samples.

Results

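The comparison described here sets 3 libraries of visceral white adipose tissue (vWAT) precursors treated with an siRNA against the long noncoding RNA H19 (siH19) beside 3 libraries of the same precursors treated with a non-targeting siRNA (siCtrl), all at d0, the day on which adipogenic induction begins. A gene was included when it reached 1 FPKM (fragments scaled to the length of the transcript and the size of the library) in at least 3 of the 6 libraries, and 13063 of the 49452 genes in the table did so. RNA sequencing covered 24 libraries in all, in 8 groups of 3, formed by depot (vWAT or brown adipose tissue, BAT), siRNA and day (d0 or d3). All groups were cultured stromal vascular fractions of C57BL/6 mice, unsorted and therefore mixed in cell type, and they carried no genetic alteration: H19 was lowered by a transient siRNA delivered by nucleofection, and the control cells were nucleofected in the same way. The vWAT cells came from epididymal fat, and by the study's methods the mice were male. At d3 the cells had been through an adipogenic cocktail that the d0 cells had not received. The labels do not say whether the 3 libraries of a group came from separate mice or cultures, so p-values measure only the spread between these libraries.

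H19 is an imprinted RNA, transcribed from the maternal chromosome beside Igf2, whose paternal copy encodes a growth factor. It is abundant in fetal tissues and is silenced in most tissues after birth. Its transcript also hosts the microRNA miR-675. White adipocyte precursors are stromal cells that, on hormonal induction, switch on the nuclear receptor PPARγ and C/EBPα, and with them the genes for fatty acid uptake, triglyceride storage and lipolysis. Cultures of the stromal vascular fraction can hold cells that have begun this programme without induction.

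H19 lies on the minus strand of chromosome 7 (GRCm38, chr7:142575529-142578143). The sequences of the siRNAs listed for the study are shown because they define what was lowered. Each guide strand is printed with its bases 2 to 8, the seed that pairs with an mRNA, in capitals.

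siH19 guide: uCUUGAUUcagaacgagacgg
siH19#2 guide: uACGGAGAgacucaaagcuat
siH19#3 guide: uGGUGUUCaagaaggcuggat

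The matching 19-base sites in the H19 transcript, given here in lower case as DNA of the H19 strand, were all exonic.

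siH19 site: gtctcgttctgaatcaaga
siH19#2 site: agctttgagtctctccgta
siH19#3 site: ccagccttcttgaacacca

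The siH19 site lay in exon 3 (chr7:142576255-142576273), the siH19#2 site further downstream in the same exon (chr7:142575771-142575789), and the siH19#3 site across the junction of exons 2 and 3 (chr7:142576524-142576624, an interval that includes the intron). Each site was present in 5 of the 7 annotated H19 transcripts. The labels of the knockdown libraries carry the number 3 after siH19. The study's methods, however, name a single oligonucleotide, siH19 without a number, for nucleofection of BAT and vWAT cells. Whether siH19#3 was the siRNA used is therefore not settled, so all 3 are shown.

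The 6 libraries were alike in depth. Read totals are not in the table used here. The ratios between the lowest values of libraries put their depth at 0.97 to 1.1 of that of siCtrl 1, and 12980 to 13099 genes per library reached 1 FPKM. Pearson's r between libraries of one group, across genes on the log2 scale, was 0.98 to 0.982, and 0% of values were identical in any such pair. Stromal markers (11 genes, among them Pdgfra, Ly6a and Col1a1) summed to 9860 to 10500 FPKM in siCtrl and 11620 to 11780 in siH19. Col3a1 (means of 7768 FPKM in siCtrl and 8985 in siH19) and Col1a1 (1660 and 1889) made up most of these sums. Of the others, Pdgfrb, Ly6a, Prrx1 and Dpp4 had higher means in siH19. Cd34, Thy1 (86.26 and 71.04 FPKM), Twist1 and Pi16 had lower ones, and Pdgfra was nearly unchanged (114.6 and 114). Adipocyte markers summed to 3302 to 3373 FPKM in siCtrl and to 1771 to 2043 in siH19, with Lep, the leptin gene, under the FPKM minimum in all 6 libraries, so that both groups held cells with adipocyte transcripts before induction. Leukocyte markers (7 genes) summed to 301.3 to 337.4 FPKM in siCtrl and 300.5 to 330.7 in siH19, endothelial markers to 9.44 to 14.2 and 9.585 to 12.37, mural markers to 6.886 to 7.586 and 7.439 to 7.789, and mesothelial markers to 80.94 to 95.94 and 83.89 to 87.19. None of the tested stromal, leukocyte, endothelial, mural (2 tested) or mesothelial markers was called. Of 5 tested adipocyte markers, 4 were called lower (Adipoq, Plin1, Fabp4 and Cfd). On a longer list of pericyte and mural genes Mcam fell. Myf5 and Myog, which define skeletal myoblasts, and Ucp1, the uncoupling protein of brown fat, were listed at 0 in all 6 libraries.

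H19 was lowered to 10.3% of its control level. Its FPKM was 12.3, 11.3 and 11.6 in the siCtrl libraries and 1.23, 0.63 and 1.76 in the siH19 libraries. The groups did not overlap, and every knockdown library kept a low but measurable H19 level. On the log2(FPKM + 1) scale, used for all fold changes given here, H19 fell by 2.56 (SE 0.19, adjusted p = 0.0046, limma with Benjamini-Hochberg adjustment over 13063 genes). Leaving out any 1 library gave values from -2.73 to -2.35, all called.

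A gene was called when its adjusted p was under 0.05 and its fold change at least 1.3. By this rule 157 genes fell with H19 knockdown (1.2% of those tested) and 43 rose (0.329%), together 200 genes (1.53%). Without adjustment, 2303 genes (17.6%) had p under 0.05. Most changes were modest: the called genes that fell had a median log2 fold change of -0.60, and 9 of them were over 2-fold lower. The genes that rose had a median of 0.57, with 6 over 2-fold higher. Short noncoding RNAs, whose values were erratic across the series, were in both sets. Scarna17, Gm47315 and Gm25663 were among the 6, and Snord32a and Mir6516 among the 9. Genes that fell were the more abundant set, with a median siCtrl level of 27.2 FPKM against 7.67 FPKM for those that rose. Of the 157, 147 were protein-coding, and of the 43, 34 were. The median change over all tested genes was -0.03. Rescaling the libraries moved the balance of directions: with median-of-ratios scaling 130 genes fell and 61 rose (68.1% lower), and with trimmed-mean scaling 129 fell and 64 rose (66.8% lower), against 78.5% lower as deposited. Either rescaling shared 173 or 172 genes with the 200. With any 1 library left out the number of calls was 37 to 122: 75, 37 and 47 without siCtrl 1, 2 and 3, and 113, 84 and 122 without siH19 1, 2 and 3. Of 63 called genes named by the rule given below, 17 kept their call in all 6 of those fits: Acsl1, Adipoq, Adm, Apln, Cdo1, Cfd, Col28a1, Dgat2, Fabp4, H19, Igfbp3, Lipe, Mgll, Nt5e, Pnpla2, Tmem190 and Wfdc21. The other 46 lost the call, or fell under the FPKM minimum, in at least 1 of them, Pparg and the other transcription factors among them.

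The largest group among the genes that fell was that of the mature adipocyte. Of 37 listed genes of the differentiated fat cell, 34 were tested, 22 fell and 0 rose, where 1.2% of all tested genes fell. The list had a median log2 fold change of -0.71, and in 31 of its 34 tested members (91.2%) all siH19 libraries were below all siCtrl libraries, a pattern seen in 16.2% of all genes. Summed over the list, the level was 6729, 6738 and 6781 FPKM in siCtrl and 4478, 3964 and 4155 FPKM in siH19. The number of members called lower was 14 to 21 when any 1 library was left out, the fewest without siCtrl 2. With fewer adipocyte-like cells in the culture or less of these RNAs per cell, the same values would be seen, and the bulk libraries cannot tell these apart.

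**Figure D1:**
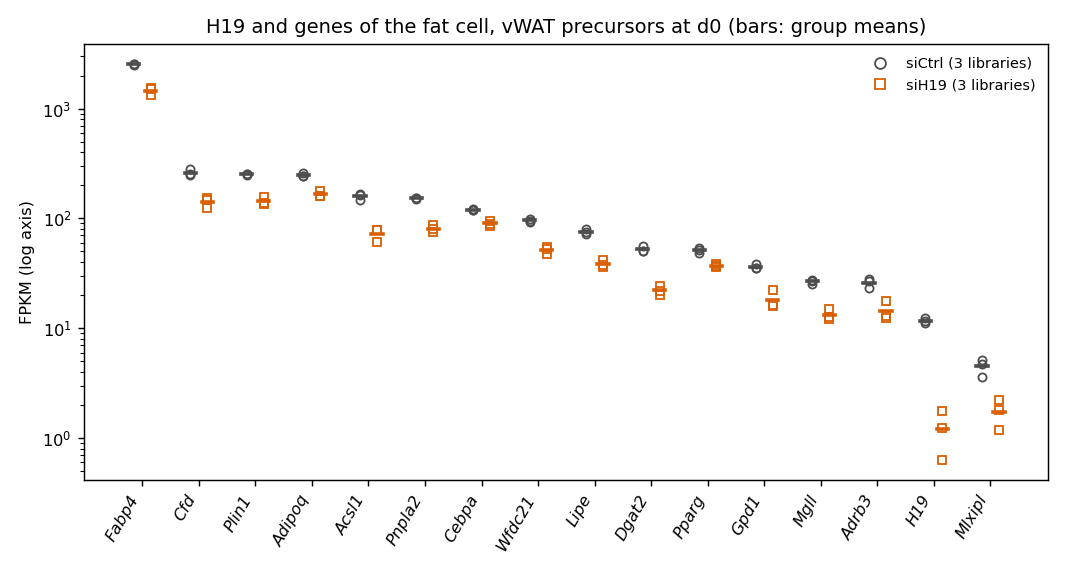
FPKM of adipocyte genes and H19 in the 6 vWAT libraries at d0, on a log axis, with circles for siCtrl and squares for siH19 libraries and bars for group means. Each of these genes had all 3 siH19 values below all 3 siCtrl values, from Fabp4 (means of 2536 and 1458 FPKM) to Mlxipl (under 6 FPKM in every library).

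Several enzymes that build triglyceride fell. Dgat2 (chr7:99153658-99182719), which adds the last fatty acid to make triglyceride, measured 50.7, 56.5 and 50.8 FPKM in siCtrl and 24.5, 21.9 and 20.3 FPKM in siH19. This was the lowest relative level among the called members of the adipocyte list, 42.2% of control, and a log2 fold change of -1.21 (SE 0.08, adjusted p = 0.00453, limma). Its relative Dgat1, which catalyses the same step, went from 72.3, 74.3 and 64.5 FPKM to 41.7, 42.3 and 44.3 FPKM (log2 fold change -0.70). Acsl1 (chr8:46471037-46536051), which activates fatty acids to acyl-CoA, measured 146.9, 168.3 and 162.5 FPKM in siCtrl and 77.8, 78.2 and 61.5 FPKM in siH19. It stood at 45.5% of control (log2 fold change -1.13, adjusted p = 0.00819, limma). Gpd1, which supplies the glycerol backbone, Agpat2 and Gpam, which acylate it, fell as well, by 0.99, 0.73 and 0.59 on the log2 scale. Scd1, the desaturase that makes oleate, measured 508.1, 479.9 and 527.7 FPKM in siCtrl and 320.7, 254.9 and 265.4 FPKM in siH19, and fell by 0.85. Acss2, which makes acetyl-CoA from acetate, fell by 0.91.

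The lipases that release stored fat fell together with the enzymes that make it. Pnpla2, the adipose triglyceride lipase, measured 149.1, 154 and 154.5 FPKM in siCtrl and 86.3, 74.7 and 80.5 FPKM in siH19 (log2 fold change -0.92, SE 0.06, adjusted p = 0.00453, limma). Its coactivator Abhd5 went from 113.8, 118.3 and 114.8 FPKM to 72.3, 73.0 and 75.2 FPKM, and G0s2, its inhibitor, fell by 0.45 on the log2 scale. The groups were far apart for these genes, although activator and inhibitor have opposite effects on the lipase. Lipe, the hormone-sensitive lipase, measured 75.7, 79.5 and 72.3 FPKM in siCtrl and 41.8, 35.9 and 37.7 FPKM in siH19 (log2 fold change -0.96). Mgll, which splits the remaining monoglyceride, went from 25.5, 27.4 and 27.1 FPKM to 14.8, 12.2 and 12.7 FPKM. Adrb3, the adrenergic receptor that starts lipolysis, went from 26.7, 23.1 and 28.3 FPKM to 17.6, 12.3 and 12.8 FPKM. Plin1 and Plin4, which coat the lipid droplet, fell by 0.81 and 0.84 on the log2 scale. Plin1 went from 255.4, 247.7 and 254.8 FPKM to 157, 135 and 139.6 FPKM.

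Fatty acid carriers and secreted products of the fat cell followed the same course. Fabp4 (chr3:10204088-10208576), the fatty acid binding protein of adipocytes, was the most abundant of them at 2530, 2519 and 2560 FPKM in siCtrl, against 1541, 1337 and 1497 FPKM in siH19. The change was -0.80 (SE 0.06, adjusted p = 0.0046, limma), to 57.5% of control. Fabp5 fell by 0.75, and Cd36, a fatty acid transporter, by 0.41. Adipoq, which encodes adiponectin, measured 258.2, 242.5 and 246 FPKM in siCtrl and 177.9, 160.6 and 159.9 FPKM in siH19 (log2 fold change -0.58). Cfd, which encodes the complement protease adipsin, measured 254.4, 248.1 and 279.6 FPKM in siCtrl and 147, 125.7 and 152.8 FPKM in siH19 (log2 fold change -0.88). Unlike Fabp4 and Adipoq, Cfd was lower at d3 than at d0 in siCtrl cells of both depots. Its siCtrl means in vWAT were 260.7 FPKM at d0 and 66.73 FPKM at d3, and its log2 change from d0 to d3 in BAT was -3.73. Wfdc21, named by the rule and placed on the white fat list, went from 95.4, 98.9 and 93.0 FPKM to 55.4, 47.1 and 52.2 FPKM. The adipocyte genes Adig and Mrap fell by 0.72 and 0.64. Below these, 2 members had an adjusted p under 0.05 but missed the 1.3-fold limit: Lpl, the lipoprotein lipase, at -0.38, and Retn, which encodes resistin, at -0.36 (adjusted p = 0.0218 for each, limma).

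The transcription factors above this programme differed in direction. Pparg (chr6:115360951-115490399), the receptor that drives adipocyte differentiation, measured 51.5, 53.6 and 48.6 FPKM in siCtrl and 36.5, 36.7 and 38.1 FPKM in siH19. It fell by 0.46 on the log2 scale (SE 0.05, adjusted p = 0.0143, limma). Cebpa, its partner, went from 119.6, 122.5 and 118.2 FPKM to 95.7, 88.9 and 85.8 FPKM (log2 fold change -0.41), and its call was lost under both rescalings, at -0.37 and under the fold limit. Srebf1, which drives lipid synthesis genes, measured 116.9, 127.2 and 143.2 FPKM in siCtrl and 91.8, 86.8 and 94.3 FPKM in siH19 (log2 fold change -0.50). Mlxipl, the carbohydrate-responsive factor ChREBP, was scarce, at 5.12, 3.63 and 4.71 FPKM against 1.79, 2.2 and 1.17 FPKM (log2 fold change -1.02, adjusted p = 0.0446, limma). Cebpd, which is expressed early in adipogenesis, rose from 7.89, 7.32 and 7.79 FPKM to 11.2, 11.7 and 10.4 FPKM (log2 fold change 0.48), and Id4, an inhibitor of helix-loop-helix factors, from 16.2, 14.3 and 17.5 FPKM to 25.9, 23.5 and 23.2 FPKM (log2 fold change 0.57). Cebpb, the other early factor, overlapped between groups, at 90.0, 86.7 and 110.7 FPKM against 114.4, 186.5 and 105 FPKM (adjusted p = 0.344, limma). Of 41 tested adipogenic regulators, these 2 rose, 3 fell (Srebf1, Pparg and Cebpa) and the median was 0.04.

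Enzymes of lipid synthesis and of mitochondrial carbon entry were also among the genes that fell. Of 36 tested lipid synthesis enzymes, 15 fell and 0 rose, with a median of -0.40. In 23 (63.9%) all siH19 libraries were below all siCtrl libraries, against 16.2% of all genes, and in 2 they were all above. The list shares many members with the adipocyte list, and with any 1 library left out 8 to 13 of its members were called, the fewest without siCtrl 2. The 2 central enzymes of fatty acid synthesis were not called: Fasn, the fatty acid synthase, measured 48.2, 44.2 and 54.5 FPKM in siCtrl and 40.7, 36.0 and 27.7 FPKM in siH19 (adjusted p = 0.161, limma), and Acaca, acetyl-CoA carboxylase, had an adjusted p of 0.197 in the same limma fit. For both genes the groups did not overlap, but the siH19 libraries were widely spread. Of 28 genes of the TCA cycle and pyruvate entry, 4 fell: Pcx, pyruvate carboxylase, by 0.87, Mpc2, a subunit of the mitochondrial pyruvate carrier, by 0.51, Idh1, the cytosolic isocitrate dehydrogenase, by 0.50, and Pdhx, a component of pyruvate dehydrogenase, by 0.40. All 28 had a lower mean in siH19, with a median of -0.23, and in 20 (71.4%) all siH19 libraries were below all siCtrl libraries. Of all tested genes, 16.2% had this pattern and 1.2% were called lower. The number called was 0 without siCtrl 2, siCtrl 3 or siH19 2, 1 without siCtrl 1, 2 without siH19 3 and 4 without siH19 1. On the list of 28 tested fatty acid oxidation genes, which had a median of -0.16, Oxct1, which uses ketone bodies, fell by 0.47. Nuclear genes of the respiratory chain (71 tested) had 0 calls in either direction, a median of -0.11 and 64 of 71 lower means. The 13 mitochondrially encoded mRNAs had 0 calls and a median of -0.10.

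Several genes outside these lists fell as far. Cdo1, cysteine dioxygenase, measured 78.5, 76.3 and 89.5 FPKM in siCtrl and 41.4, 35 and 35.4 FPKM in siH19 (log2 fold change -1.11). Aldh1a7, an aldehyde dehydrogenase, went from 19.1, 21.0 and 20.6 FPKM to 10, 8.39 and 7.07 FPKM (log2 fold change -1.17). Mcam, a cell adhesion molecule of vessel walls, fell by 0.96, Fggy, a carbohydrate kinase, by 0.93, Rasd1, a Ras-related protein induced by dexamethasone, by 0.91, and Tmem190 by 0.97. Nppc, which encodes C-type natriuretic peptide, was at 1.82, 2.1 and 2.18 FPKM in siCtrl and 0.443, 0.743 and 0.669 FPKM in siH19, the lowest level among the named genes that fell.

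Few members of the lists of secreted and surface proteins were called. Apln, which encodes the vascular peptide apelin, measured 76.8, 82.3 and 78.9 FPKM in siCtrl and 49.0, 47.7 and 47.9 FPKM in siH19 (log2 fold change -0.71, adjusted p = 0.00453, limma), and Adm, which encodes the vasodilator adrenomedullin, rose from 28.4, 29.6 and 29.3 FPKM to 45.0, 49.2 and 43.6 FPKM (log2 fold change 0.64). Both encode angiogenic peptides, and the list of 35 tested angiogenic factors had 2 members higher and 2 lower. Apoe, the lipid carrier, fell from 1841, 1787 and 1818 FPKM to 1362, 1309 and 1395 FPKM (log2 fold change -0.42), and Scarb1, the HDL receptor, by 0.63. They were the only called members among 36 of cholesterol synthesis and handling. Spp1, which encodes osteopontin, was the only call among 48 other matrix proteins, at -0.69, and Serpine2, a protease inhibitor, fell by 0.65, while Prss23 and Mmp23, both proteases, rose by 0.41 and 0.43 (51 tested on that list). Prss23 overlaps an antisense gene, Prss23os, so its value is uncertain. Nt5e, the ecto-nucleotidase CD73 that marks mesenchymal stroma, fell from 23.7, 25.4 and 24.7 FPKM to 14.7, 14.5 and 13.6 FPKM. Spry4 and Dusp4, feedback inhibitors of MAP kinase signalling, fell by 0.40 each, and both calls were lost under either rescaling.

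Among the genes that rose were 3 targets of YAP, TAZ and TEAD. Igfbp3 (chr11:7206086-7213923), which binds insulin-like growth factors, measured 245.6, 230.9 and 265.3 FPKM in siCtrl and 377.6, 386.1 and 379.8 FPKM in siH19. It rose by 0.62 (SE 0.06, adjusted p = 0.00768, limma), to 154% of control. Ctgf (chr10:24595442-24598683), a matricellular protein and a target of YAP and TEAD, measured 770.7, 682.8 and 729.5 FPKM in siCtrl and 1084, 1011 and 1174 FPKM in siH19 (log2 fold change 0.58, adjusted p = 0.0157, limma). F3, tissue factor, went from 442.6, 462.7 and 420.4 FPKM to 586.1, 654.3 and 668.1 FPKM. Of 32 tested YAP, TAZ and TEAD targets, these 3 rose against a background of 0.329%, Nt5e fell, the median was 0.17, and in 16 (50%) the siH19 libraries were all above the siCtrl libraries, as for 8.36% of all genes. Cyr61, a close relative of Ctgf, stood at 571.1, 607.8 and 538.9 FPKM in siCtrl and 699.6, 746.2 and 778 FPKM in siH19, with an adjusted p of 0.0405 (limma) but under 1.3-fold. With any 1 library left out, 1 to 3 targets were called higher, the fewest without siCtrl 2 or siCtrl 3.

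**Figure D2:**
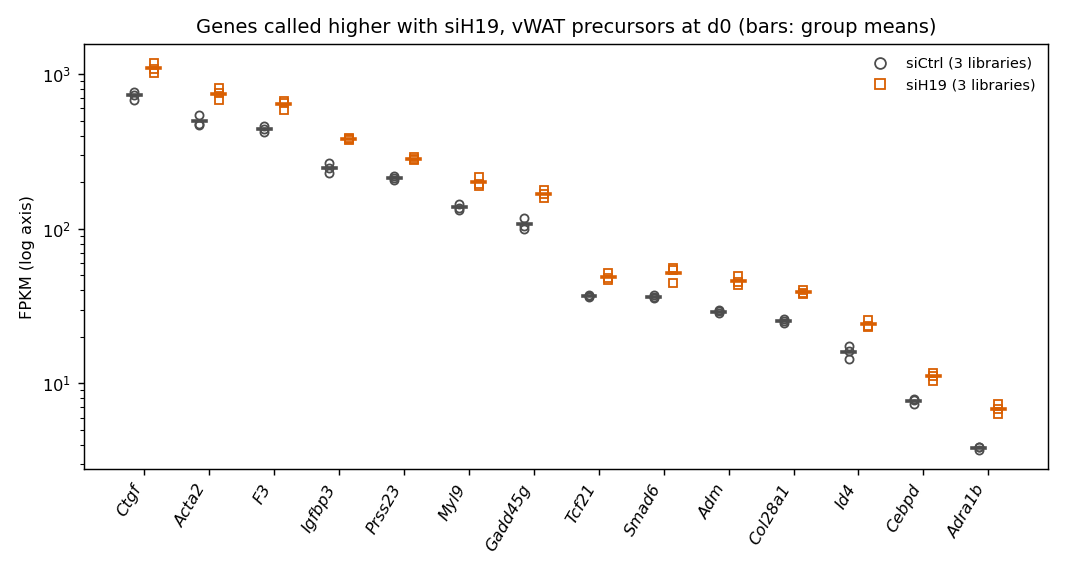
FPKM of genes called higher in siH19, in the 6 vWAT libraries at d0, on a log axis, with circles for siCtrl and squares for siH19 libraries and bars for group means. For each gene all siH19 points lie above all siCtrl points, as for Acta2 (470.2 to 543.6 FPKM against 675.3 to 809.1 FPKM).

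Acta2 (chr19:34241090-34255336), the smooth muscle actin of myofibroblasts, measured 543.6, 470.2 and 472.6 FPKM in siCtrl and 749.4, 675.3 and 809.1 FPKM in siH19 (log2 fold change 0.59, SE 0.09, adjusted p = 0.0275, limma). Myl9, the regulatory myosin light chain, rose from 144.3, 133.1 and 135.4 FPKM to 215.4, 189 and 193.4 FPKM. In both, the lowest siH19 library was above the highest siCtrl library. Tagln, another actin-binding protein of this programme, was at 1038, 921.9 and 929 FPKM in siCtrl and 1230, 1121 and 1397 FPKM in siH19, without a call (adjusted p = 0.104, limma). Of 25 tested smooth muscle and myofibroblast genes, 2 rose, Mcam fell, 22 had a higher mean in siH19 and the median was 0.25. In 13 of them (52%) all siH19 libraries were above all siCtrl libraries. Of all tested genes, 8.36% had this pattern and 0.329% were called higher. With any 1 library left out, 0 to 2 were called higher, and 0 without siCtrl 2 or siCtrl 3.

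The other genes that rose were spread over several functions. Col28a1, a collagen chain, went from 26, 24.5 and 25.2 FPKM to 38.3, 40.0 and 37.9 FPKM (log2 fold change 0.60, adjusted p = 0.00614, limma) and was the only called member of 25 collagens. Itga11, a collagen-binding integrin, rose by 0.40, S100a4, a calcium-binding protein of fibroblasts, by 0.39, and Tcf21, a factor that marks visceral stroma, by 0.40, from 36.6, 36.3 and 37.4 FPKM to 52.0, 46.4 and 47.8 FPKM. Wt1, another marker of the visceral depot, was nearly unchanged, with means of 34.13 FPKM in siCtrl and 34.76 FPKM in siH19, and was not called. Gadd45g, a stress-induced growth inhibitor, went from 103.9, 118 and 99.6 FPKM to 158.4, 179.2 and 168.5 FPKM, and was the only call among 33 cell cycle inhibitors and p53 targets. Smad6, an inhibitor of BMP signalling, rose by 0.50 and was called with Id4 among 51 genes of the TGF-β and BMP pathway. Scarcer genes that rose were Adra1b, an adrenergic receptor, from 3.85, 3.71 and 3.88 FPKM to 6.82, 7.4 and 6.33 FPKM, Pcdh1, a protocadherin, by 0.69, Jph2, a junctophilin of muscle membranes, by 0.66, Cep128, a centriole protein, by 0.66, Fam219b by 0.64, Usp53 by 0.54, and Hoxc13, a homeobox factor that was not on the Hox list, by 0.58. None of the 26 tested genes of that list was called.

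The imprinted genes other than H19 gave no calls. Igf2, the neighbour of H19, was low and overlapped between groups, at 3.9, 4.13 and 5.42 FPKM in siCtrl and 4.17, 2.1 and 3.93 FPKM in siH19 (log2 fold change -0.34, SE 0.22, adjusted p = 0.468, limma). Of 15 tested genes in the H19 and Igf2 neighbourhood of chromosome 7, H19 itself was the only call. Among 24 paternally expressed genes the median change was -0.0023, the range ran from Plagl1 at -0.54 (adjusted p = 0.316, limma) to Sgce at 0.13, and 0 were called. Among 31 maternally expressed genes the median was -0.0028, with 0 calls. At single genes the changes were -0.18 for Dlk1, -0.03 for Peg3, -0.07 for Peg10, -0.28 for Mest, 0.04 for Nnat, -0.03 for Cdkn1c, 0.02 for Igf2r, -0.07 for Rian, -0.20 for Meg3 and 0.14 for Dcn, and none passed the test. Gpr1 did not reach the FPKM minimum. Mbd1, a methyl-DNA binding protein, was at 13.5, 13 and 13.7 FPKM in siCtrl and 13.6, 13.7 and 13.3 FPKM in siH19 (log2 fold change 0.02), and Ctcf, the insulator protein, at 0.03. None of 22 imprinting and methyl-DNA factors was called. The precursor markers Pdgfra (-0.01), Ly6a (0.31), Runx2 (0.05), Gata2 (0.06) and Tgfb2 (0.18) did not pass the test either. The median of 36 stromal precursor markers was 0.06, and 2 rose, S100a4 and Tcf21. With any 1 library left out the number that rose was 1 without siH19 2 and 0 otherwise.

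**Figure D3:**
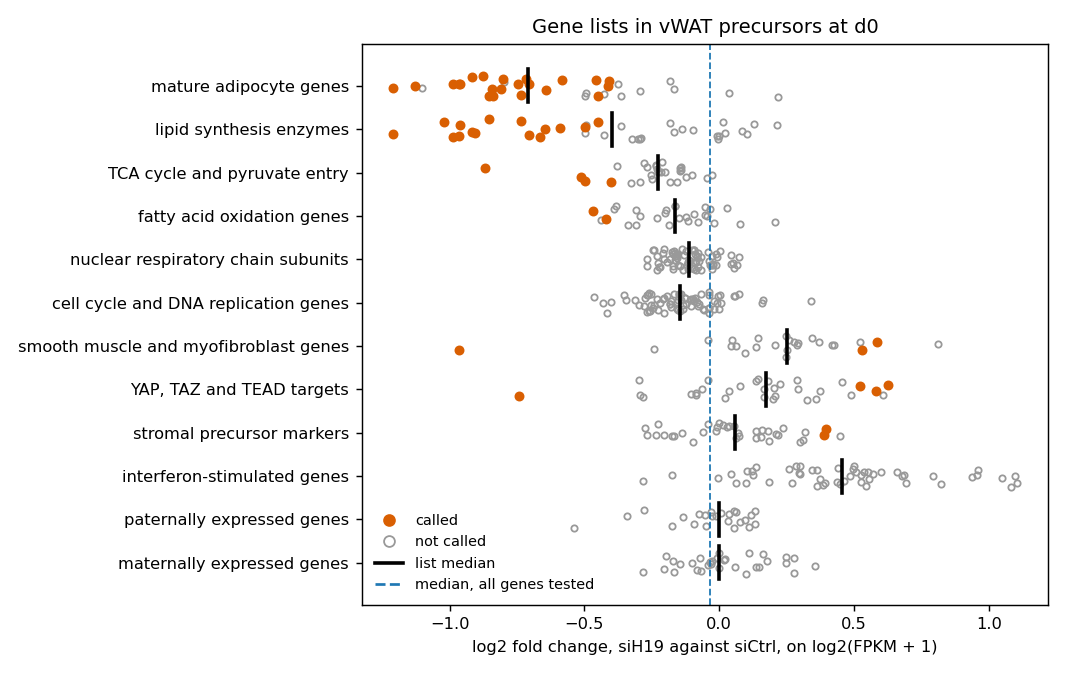
Log2 fold change on the log2(FPKM + 1) scale (horizontal axis, siH19 against siCtrl, vWAT d0) of the tested members of 12 gene lists, each point a gene, filled where called, with a black bar at the list median and a dashed line at the median of all genes. Mature adipocyte genes had the lowest median (-0.71) and interferon-stimulated genes the highest (0.45), and the latter had 0 calls.

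Interferon-stimulated genes, a group that double-stranded RNA can induce, had the highest median of all lists, 0.45, with 49 of 52 tested members higher on average, but 0 called. In 15 of the 52 (28.8%) all siH19 libraries were above all siCtrl libraries, against 8.36% of all genes. Isg15, a ubiquitin-like modifier, measured 22.4, 38.1 and 27.3 FPKM in siCtrl and 44.4, 92.0 and 43.8 FPKM in siH19 (adjusted p = 0.201, limma), and Ifit3 measured 2.01, 10.8 and 4.34 FPKM against 6.58, 22.4 and 9.61 FPKM (adjusted p = 0.386). Library 2 was the highest of its group on both sides for these genes. The list summed to 2966, 3426 and 2921 FPKM in siCtrl and 3373, 4036 and 3305 FPKM in siH19, so that the groups overlapped. With any 1 library left out the median was 0.28 to 0.56. Whether this level had a part in the other changes was not tested. In BAT at d0 the same list had a median of -0.32 and 2 members that fell.

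Proliferation and stress lists gave few calls. Of 76 cell cycle and DNA replication genes 0 were called, 68 had lower means and the median was -0.15. Of 37 Nrf2 antioxidant genes only Cat, catalase, was called, at -0.40, and it was not called under either rescaling. Cebpd was the only call of 21 glucocorticoid-responsive genes, Igfbp3 of 27 genes of the IGF and insulin pathway, Adrb3 of 9 tested brown fat genes, Cfd of 19 stromal complement genes and Mcam of 7 pericyte and mural genes. Spry4 and Dusp4 were the calls among 41 growth factor receptors and ligands. Among 23 white fat and visceral depot genes, Igfbp3 and Tcf21 rose, and Wfdc21 and Serpina3c fell. No gene was called among 53 genes of the unfolded protein and ATF4 response, 44 of the Wnt pathway, 42 chemokines and cytokines, 41 of glycolysis and the pentose phosphate path, 33 proteasome subunits, 17 of the RNA interference machinery, 9 of skeletal muscle, 18 leukocyte, 15 mesothelial, 9 endothelial, 2 Schwann cell and 2 epididymal genes. Il33, an alarmin cytokine, had a log2 fold change of -2.37 without a call (adjusted p = 0.425), as it was listed at 0 in siH19 library 3 and stood at 31.7 and 42.7 FPKM in the other two, against 51.7, 58.1 and 62.2 FPKM in siCtrl.

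At d3 of differentiation the difference in the adipocyte genes was no longer seen. The list summed to 36660, 36230 and 35070 FPKM in siCtrl and 39000, 36660 and 37010 FPKM in siH19 at d3. Of its 36 members tested at that day 0 were called and the median was 0.02, although H19 itself was still lower, by 2.68 on the log2 scale (adjusted p = 0.00965, limma). Over all genes 4 were called at d3 (1 higher, 0.00764%, and 3 lower, 0.0229%, or 0.0305% of 13097 in all, with 1315 at an unadjusted p under 0.05, and 1 to 5 called with any 1 library left out), and of the 157 genes that fell at d0, 153 were tested, 1 fell, H19, and 75 had a higher and 78 a lower mean. The difference between days was tested directly, in a fit of 12 libraries that includes the same d0 libraries. The interaction term passed for 241 genes (1.73%), of which 203 had a positive (1.46%) and 38 a negative term (0.272%), and for 127 to 241 genes with any 1 library left out, the fewest without siH19 1 of d3. For the adipocyte list 24 of 36 tested members had a positive term. Fabp4 had a term of 0.95 (SE 0.07, adjusted p = 0.000282, limma), Lipe of 1.03 and Pparg of 0.70. At d3 Fabp4 stood at 14400 ± 392 FPKM in siCtrl and 15910 ± 480 FPKM in siH19 (SD, n = 3 each).

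**Figure D4:**
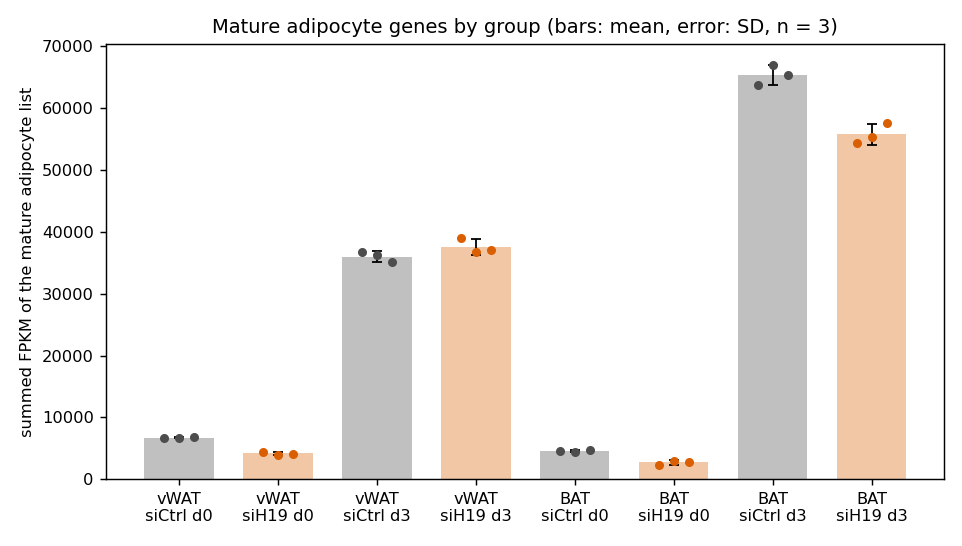
Summed FPKM of the 37 mature adipocyte genes in each of the 24 libraries, by depot, day and siRNA, on a linear axis, with bars for the mean, error bars for the SD (n = 3) and points for libraries. At d0 the siH19 libraries lie below siCtrl in both depots, at d3 the vWAT groups meet (35070 to 36660 against 36660 to 39000), and in BAT at d3 the siH19 libraries are lower (54300 to 57490 against 63660 to 66960).

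In BAT precursors, a separate set of 6 libraries, the same knockdown at d0 was also followed by lower adipocyte genes. BAT cells began with more H19, 130 ± 27.1 FPKM in siCtrl against 4.36 ± 1.33 in siH19 (SD, n = 3 each), and the fall of 4.63 exceeded that in vWAT by 2.07 on the log2 scale (SE 0.32, adjusted p = 0.0208, limma interaction). Because 1 is added to each FPKM, a gene that starts lower can fall less far on this scale. H19 began at a mean of 11.7 FPKM in vWAT, so part of this difference follows from the starting level. The adipocyte list summed to 4520, 4429 and 4830 FPKM in BAT siCtrl and 2343, 3031 and 2868 FPKM in BAT siH19, and 21 of 35 tested members fell, with a median of -0.71. BAT had 245 called genes (1.94% of 12651), of which 167 fell (1.32%), and 4 to 74 calls with any 1 library left out, the fewest without BAT siCtrl 3. Of the 157 genes that fell in vWAT, 147 were tested in BAT and 50 fell there, which is 31.8% of the vWAT set and 29.9% of the BAT set. In the same direction without regard to calls were 131, and the median in BAT was -0.38 against -0.03 over all genes. Of the 43 genes that rose, 38 were tested in BAT and 3 rose there, where 0.617% of all tested genes rose, which is 6.98% of the vWAT set and 3.85% of the 78 that rose in BAT. Across the 12182 genes tested in both depots the changes had a Pearson's r of 0.08 and a Spearman's rho of 0.24, over genes that are not independent replicates.

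**Figure D5:**
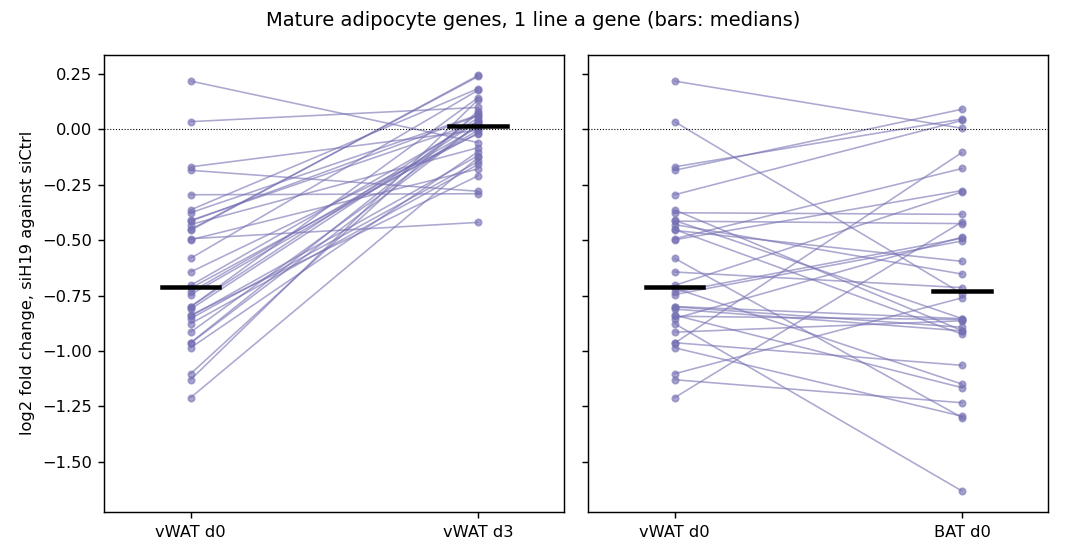
Log2 fold change (siH19 against siCtrl) of the mature adipocyte genes on the vertical axis, in vWAT at d0 beside vWAT at d3 (left) and beside BAT at d0 (right), with a line for each gene tested in both and a black bar at the median. The 34 genes have medians of -0.71 in vWAT at d0, 0.02 in vWAT at d3 (18 above 0) and -0.73 in BAT at d0 (4 above 0).

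The difference between depots was tested as well. The depot by siRNA term passed for 140 genes (1.02% of 13708, and 35 to 110 with any 1 library left out, the fewest without BAT siCtrl 2), and for 20 of the 43 it was negative, as for 0.569% of all genes. Col28a1 rose by 0.60 in vWAT and had a change of -0.14 in BAT (term -0.73, SE 0.08, adjusted p = 0.0069, limma), and Id4 and Cebpd had terms of -0.82 and -0.65. Of the 157 genes that fell in vWAT, 17 had a positive term, as had 0.452% of all genes, and 1, H19, a negative term. Spp1 fell by 0.69 in vWAT and was at 0.37 in BAT, under the fold limit (term 1.07), and Serpine2, at -0.65 in vWAT, was at 0.03 in BAT (term 0.68). Since the d0 libraries of vWAT enter these terms and chose the genes, which leans the terms towards the opposite sign, they do not bear on the vWAT calls as separate evidence. BAT and vWAT libraries carry different codes in their labels, and depot and library set cannot be told apart.

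A measure that used none of the siH19 libraries and no vWAT library was the change of the same genes during BAT differentiation, from d0 to d3 in siCtrl cells. Of the 157 genes that fell with knockdown in vWAT, 152 were tested there, and 118 rose and 21 fell on differentiation, where 65.2% of all 13001 tested genes were called, 29.9% higher and 35.3% lower. Their median change was 2.68, against -0.10 over all genes. Of the 43 genes that rose with knockdown, 38 were tested, 34 fell on differentiation and 0 rose, with a median of -1.62. The genes lower after knockdown in vWAT were therefore mostly ones with higher levels at d3 of BAT differentiation, and those higher after knockdown mostly ones with lower levels.

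The seeds of the 3 siRNAs were set against the 3′ UTRs of 11797 tested protein-coding genes, searched for the 7 bases that pair with bases 2 to 8 of the guide. For siH19 (AATCAAG) the match was in 10.4% of all genes and in 14 of 147 that fell (9.52%). For siH19#2 (TCTCCGT) it was in 4.28% and in 4 of 147 (2.72%), and for siH19#3 (GAACACC) in 8.22% and in 9 of 147 (6.12%). For none of the 3 was the share higher among the genes that fell. The UTRs of those genes were also shorter, with a median of 937 bases against 1352. Genes with a match and genes without one had median changes of -0.05 and -0.03 for siH19, -0.03 and -0.03 for siH19#2 and -0.03 and -0.03 for siH19#3. The mature products of miR-675, which lie within H19, are shown with their seeds in capitals because their host RNA was lowered.

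miR-675-3p: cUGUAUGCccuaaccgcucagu
miR-675-5p: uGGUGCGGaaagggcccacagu

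They map to chr7:142577078-142577099 and chr7:142577112-142577133. The libraries were made from polyadenylated RNA and do not measure mature microRNAs.

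Promoters, 250 bases before to 50 bases after each start site (RefSeq, GRCm38.p6), were searched on both strands for 4 motifs: GGAATG of TEAD factors, the CArG box of serum response factor, the direct repeat element of PPARγ with RXR, and TGACTCA of AP-1. A promoter was matched, by gene identifier or otherwise by symbol, for 105 of the 157 genes that fell and 26 of the 43 that rose. GGAATG was in 15.2% of those that fell, 11.5% of those that rose and 14.2% of all tested genes with a promoter (14.7% of all promoters). TGACTCA was in 2.86%, 11.5% (3 of 26) and 4.63% (5.2% of all promoters), the CArG box in 1.9%, 3.85% (1 of 26) and 1.54% (1.63%), and the PPARγ motif in 0%, 0% and 0.248% (0.381%). For 4 of the genes that rose, chosen after their values were seen, a match is shown in its context, 5′ to 3′ on the strand of the gene, with the motif in capitals.

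Acta2, GGAATG: gaacagaGGAATGcagtgga
Myl9, CArG box: gcagaggCCTAATAAGGccgggct
F3, TGACTCA on the other strand: tcacggtTGAGTCAccccttt
Prss23, TGACTCA: accaggcTGACTCAgtccccc

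These windows lie at chr19:34255507-34255526, chr2:156775296-156775319, chr3:121723395-121723415 and chr7:89518337-89518357. A match is a description of the letters and not a site at which binding was measured.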

How the data were processed

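Groups were taken from the sample labels. The titles of the control libraries read siKO, taken here as the non-targeting siRNA of the study's methods, and those of the white depot read WAT. The authors aligned reads to GRCm38.p5 and, per the submitters' processing notes, used FastQC 0.10.1, TopHat2 2.0.10, STAR, Cufflinks 2.2.1, DESeq2 and R 3.2.2, within the QuickNGS workflow. The authors deposited 1 table without read counts, whose values were taken as FPKM, since the sums differ between libraries and the paper's plots name this unit. FPKM are relative to the library total, so abundant genes that change move all others. An FPKM of 0 was not read as absence. The number of columns of per-sample values not used was 0.

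Values were analysed as log2(FPKM + 1) with limma 3.58.1 in R 4.3.3 (trend), with a minimum of 1 FPKM in 3 of 6 libraries and Benjamini-Hochberg adjustment. Interaction terms came from 12 libraries and needed an adjusted p under 0.05 at any fold. An exact two-sided permutation test of 3 against 3 cannot go below p = 0.1 and was not used. On simulated data with the spread of the 13063 genes of this comparison, 85 of 100 changes of 1 and 71 of 100 of 0.6 (log2) were recovered, with 4 false calls. These counts hold for the simulation and give no error rate for the 200 calls, which fell to 37 to 122 with any 1 library left out. Figures were drawn with matplotlib 3.10.9.

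Gene lists (45, with 1592 of 1604 genes matched by symbol) and the comparison itself were chosen with earlier results of these data known. Named genes were H19, up to 15 called genes per direction by fold change with a proper name and no overlap between groups, up to 4 called members per list (or the largest change where none was called), imprinted and fat genes that the study names, and up to 5 called interaction genes each way. Members quoted outside this rule (Lpl, Retn, Fasn, Acaca, Tagln, Cyr61, Isg15, Plin1, Plin4, Scd1, Dgat1, Agpat2, Gpam, Abhd5, G0s2, Acss2, Fabp5, Cd36, Adig, Mrap, Lep, Myf5, Myog, Ucp1, Col1a1, Col3a1, Pdgfrb, Prrx1, Dpp4, Cd34, Thy1, Twist1 and Pi16) were chosen as familiar members of those lists after their values were seen. A withheld item is not reported here. Alternatives were pseudocount, filter, scaling, limma settings, a replicate block and leaving out each library.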

Additional observations from a re-analysis of the deposited data

Results flagged for a closer look

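The values in this part are differences between 2 siRNA effects, each taken as an interaction term from a limma fit of 12 libraries with an adjusted p under 0.05. They concern genes that the text names, and each fit contains the 6 vWAT libraries of d0. Groups of 3 libraries were not tested for outliers.

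Between depots at d0 (the siH19 effect in BAT minus that in vWAT, log2), the term was positive for Spry4 (0.52), Serpine2 (0.68), Mgll (0.86), Nppc (0.89), Spp1 (1.07), Nqo1 (1.08), Clcn5 (1.2), Akr1c18 (1.34) and Il11 (2.102). Nppc was near 0 in BAT at d0 (means of 0.0175 FPKM in siCtrl and 0 in siH19), so its term is almost only the vWAT change. The sign of the term was the other for a further set of genes. The depot term was negative for H19 (-2.07), Xaf1 (-1.89), C1qa (-1.06), Cxcl12 (-1.004), Kng1 (-0.95), Fam219b (-0.83), Id4 (-0.82), Col28a1 (-0.73), Gadd45g (-0.72), Adm (-0.70), Smad6 (-0.70), Adra1b (-0.66), Mmp23 (-0.66), Cebpd (-0.65), Ctgf (-0.47) and Prss23 (-0.24). The term of Il11, an interleukin 6 family cytokine, was the largest positive one of these, and neither Il11, Akr1c18, Clcn5, Nqo1, Xaf1, Cxcl12, C1qa nor Kng1 was called in vWAT at d0. In the 6 vWAT libraries Il11 measured 110.3, 150.4 and 143.7 FPKM in siCtrl and 42.9, 71.7 and 85.0 FPKM in siH19, without a call.

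Between days in vWAT (the effect at d3 minus that at d0, log2), the term was positive for the adipocyte and lipid genes and regulators Cebpa (0.44), Srebf1 (0.51), Pparg (0.70), Cfd (0.72), Adipoq (0.76), Gpd1 (0.89), Pnpla2 (0.94), Fabp4 (0.95), Mgll (0.99), Mlxipl (0.99), Lipe (1.03), Dgat2 (1.08), Cidec (1.19) and Acsl1 (1.26). It was positive for Dusp4 (0.35), Apoe (0.35), Spry4 (0.35), Idh1 (0.48), Cat (0.48), Oxct1 (0.48), Scarb1 (0.51), Mpc2 (0.55), Wfdc21 (0.73), Rasd1 (0.80), Pcx (0.83), Nt5e (0.88), Aldh1a7 (0.95), Cdo1 (1.09), Mcam (1.2) and Sox6os (1.25) too. It was negative for Fam124a (-1.40), Fam219b (-0.87), Serpina3k (-0.81), Cxcl5 (-0.74), Edn1 (-0.68), Cebpd (-0.67), Gadd45g (-0.51), Igfbp3 (-0.48), Adra1b (-0.47) and Col28a1 (-0.43). Serpina3k was listed at 0 in the 6 libraries of d0, so its term is the change at d3 alone. The positive terms belong to genes that were lower with siH19 at d0, and the same d0 values enter both.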

How the results depend on the processing

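Every alternative was planned. None of 62 named called genes other than H19 changed direction under any of them, and none lost its call with a pseudocount of 0.5, robust limma or no minimum fold change. A pseudocount of 0.1 removed 3 calls, either rescaling 6, limma without trend 16, 1 fit of all 24 libraries 3 and no filter on low values 36. With 1 library left out 24 to 44 were lost.

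The genes called in vWAT at d0 (200) were 65 with no filter on low values and 385 with all 24 libraries in 1 fit, and 37 to 122 with 1 library left out. The adipocyte list had a median of -0.64 with no filter, and -0.74 to -0.63 with 1 library left out, when 14 to 21 members were called. The lipid synthesis list had a median of -0.47 with a pseudocount of 0.1 and -0.46 to -0.34 with 1 library left out, when 8 to 13 members were called, against 9 with no filter. The TCA list (4 calls) had 1 with no filter, 2 without trend, 8 with no minimum fold change and 0 to 4 with 1 library left out. Calls were 395 in BAT at d0 with no minimum fold change and 4 to 74 with 1 library left out, 1 to 5 in vWAT at d3, 35 to 110 for the depot term and 127 to 241 for the day term. The wide ranges go with fewer libraries in each fit, and the cause of the other shifts was not tested.

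The labels give the groups the same replicate numbers, and do not say whether these pair the samples. Over all tested genes, deviations of same-numbered vWAT libraries at d0 correlated at -0.0067, -0.0602 and -0.0333. None of the 3 siCtrl libraries was closest to the siH19 library of its own number. The interferon-stimulated genes, however, summed highest in library 2 of both groups. With 3 libraries a group, these values cannot settle whether the samples were paired. A replicate block gave 2 calls in vWAT at d0 (Scarna17 higher, Snord32a lower), with 2138 against 2303 genes at an unadjusted p under 0.05. H19 stayed at -2.56 with an adjusted p of 0.0526 (limma). In the same block the adipocyte, lipid synthesis and TCA lists had 0 calls each, BAT at d0 had 2, vWAT at d3 had 0, the depot term 32 and the day term 116.

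The direction changed only for 12 named genes, none of them called. Pdgfra was at 0.0281 with median-of-ratios and 0.0295 with trimmed-mean scaling, and at 0.013 to 0.0231 with a library left out. Peg3 was at 0.000204 with trimmed-mean scaling and 0.0133 to 0.0915 with a library left out. With 1 library left out, the opposite sign appeared for C1qa (-0.0485 to -0.0389), Cdkn1c (0.00266 to 0.111), Ctcf (-0.0408), Gata2 (-0.0134), Igf2r (-0.0966 to -0.0144), Mbd1 (-0.00427), ND4L (-0.177), Nnat (-0.211 to -0.00927), Peg10 (0.0354) and Runx2 (-0.0882 to -0.0448). Over all such fits the ranges were -0.0485 to 0.104, -0.248 to 0.111, -0.0408 to 0.0788, -0.0134 to 0.158, -0.0966 to 0.133, -0.00427 to 0.0286, -0.177 to 0.573, -0.211 to 0.193, -0.15 to 0.0354 and -0.0882 to 0.296 in that order, -0.0428 to 0.0231 for Pdgfra and -0.147 to 0.0915 for Peg3. Read totals are not known, so the counting error of scarce genes such as Nppc and Mlxipl could not be computed.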

Other observations

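Short noncoding RNAs gave the extreme fold changes in vWAT at d0, and their values were erratic across the series. Scarna17, a small Cajal body RNA of 79 bases, was listed at 0 in the 3 siCtrl libraries and at 40.4, 39.8 and 40.6 FPKM in the 3 siH19 libraries, and at 0 in the other 18 libraries. Snord32a, a small nucleolar RNA of 83 bases, was at 35.7, 66.5 and 36.8 FPKM in siCtrl and listed at 0 in the 3 siH19 libraries. Elsewhere it was listed at 0 in most libraries and stood between 32.7 and 84.4 FPKM in 5 others, of both siRNAs. The microRNA precursor Mir6516 was at 10.7, 5.7 and 17.98 FPKM in siCtrl and listed at 0, 1.4 and 0.00149 FPKM in siH19. Libraries of polyadenylated RNA do not capture such RNAs by design, and on genes shorter than a fragment an FPKM rests on few reads. Whether these values have any part in the other changes was not tested.

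GGAATG was in the promoters of 14 of 25 YAP, TAZ and TEAD targets with a promoter (56%) and of 8 of 22 smooth muscle and myofibroblast genes (36.4%), against 14.2% of all tested genes. The CArG box was in 4 of those 22 (18.2%) against 1.54%. The lists were chosen for known regulation by these factors, and the shares do not concern the knockdown.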
